A study of Mus musculus with 8 samples.

Results

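Tight junctions seal the space between neighbouring epithelial cells and set which ions and solutes can pass between them. Claudins are the membrane proteins that build the strands of the junction, and their mixture decides whether the seal is tight or leaky to certain ions. Occludin lies in the same strands, JAM-A is an adhesion molecule of the immunoglobulin type beside them, and ZO-1 is the scaffold that ties the strands to actin. Ductal cells of the pancreas are epithelial and carry such junctions.

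The 9 genes described here are 6 claudins, Cldn1, Cldn2, Cldn3, Cldn4, Cldn6 and Cldn7, with Ocln (occludin), Tjp1 (ZO-1) and F11r (JAM-A). They were taken by symbol, and all 9 were among the 34478 genes of the deposited table. RNA came from 4 primary cell lines, #1, #3, #5 and #10, grown from pancreatic ductal adenocarcinoma (PDAC) of mice with the alleles Ptf1awt/Cre and Trp53loxP/loxP, in which a Cre driven from the pancreatic gene Ptf1a removes p53. Libraries of both treatments share these alleles, and the age of the mice was not given in the sources used here. Each line was treated for 48 h with trametinib, an inhibitor of the kinase MEK, at its own IC50, or with the solvent DMSO, and gave 1 library per treatment. Values are normalized counts per gene, scaled by the authors, and tests are from limma with a block for cell line, and p-values are adjusted over 15888 genes by the Benjamini-Hochberg method.

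The libraries summed to 30680091 to 36385719 normalized counts, which corresponds to about 29300000 to 46000000 reads. The floor of 3 reads lay between 2.32 and 3.72 normalized counts. Of 10 genes controlled by MEK and ERK, 9 fell and 0 rose, where 25.6% of all genes tested fell and 53.0% changed. Dusp6, a phosphatase of ERK, was among those that fell, with a log2 fold change of -2.51. The gene not called, Epha4, was higher by 0.87 on the log2 scale in 4 of 4 lines (limma adjusted p = 0.0504). The ductal markers Krt8, Krt18, Krt19, Krt7 and Cdh1 were each at 9734 normalized counts or more in every library, and Sox9 at 65.5 to 1246. Of the 6 ductal markers tested, 5 fell and 0 rose, where 25.6% of all genes tested fell and 53.0% changed. With equal totals, quantile normalization or eBayes without trend 3 of them fell. Without line #3 4 of them fell, and without line #5 2 fell. Without the block 0 had a limma adjusted p under 0.05, where 28.7% of all genes tested did, and 1 an unadjusted p under 0.05. The list summed to 221215 to 348774 normalized counts in DMSO libraries and 112485 to 220925 in trametinib libraries. Epcam, another epithelial marker, was listed at 0 in both libraries of lines #1, #5 and #10 and at 10.4 and 3.75 in line #3, which goes against an epithelial label for this 1 gene. The 9 fibroblast markers summed to 95.8 to 369 normalized counts with DMSO and to 440.0 to 1260 with trametinib, a sum led by Col1a1, while Lum was listed at 0 in every library. The 4 endothelial markers in the table summed to 30.9 to 54.6 normalized counts with DMSO and 62.7 to 831 with trametinib. Of the latter, Tek held 805 in line #3 and 153 in line #1. Col1a1 rose by 3.60 on the log2 scale (limma adjusted p = 0.00087) and Tek by 3.77 (limma adjusted p = 0.0015), each in 4 of 4 lines. With DMSO, however, Tek held only about 9, 21, 1 and 3 reads in lines #1, #3, #5 and #10. Lines #5 and #10 thus started at or under the floor of 3 reads, and line #10 reached about 14 reads with trametinib. The other fibroblast markers tested, Col3a1, Dcn, Pdgfra and Thy1, did not pass (limma adjusted p = 0.64, 0.99, 0.91 and 0.84). Pecam1 and Kdr did not pass either (limma adjusted p = 0.82 and 0.28). Thus 1 of 5 fibroblast and 1 of 3 endothelial markers tested were called, against 53.0% of all genes tested. The 4 hematopoietic markers in the table summed to 37.2 or less in every library and the acinar markers to 252 or less. The part of these markers in the results below was not tested. In bulk RNA, fewer cells that express a gene and less RNA per cell cannot be told apart.

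Trametinib turned the claudins in opposite directions. Cldn4 rose 24.4-fold on average (4.61 on the log2 scale, and 5.39 without line #1), while Cldn2, Cldn7 and Cldn3 fell 4.22-fold, 3.90-fold and 3.24-fold, each in 4 of 4 lines. F11r rose 2.11-fold in 4 of 4 lines. Cldn6, Ocln and Tjp1 did not pass the test, and Cldn1 lay under the filter on low values. Thus 5 of the 8 genes tested had an adjusted p under 0.05 in limma, 2 higher and 3 lower, against 53.0% of all genes tested (27.3% higher and 25.6% lower). A share of 5 in 8 is near that background. Without the cell line as a block, 2 of the 8 passed, Cldn4 and Cldn2, against 28.7% of all genes. Because Cldn4 alone had treatments that did not overlap over the lines, the count for that measure was 1 of 8, against 31.3% of all genes tested.

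The sequences upstream of the start sites of the 5 genes that changed are shown because Cldn4 and its neighbour Cldn3 moved in opposite directions. Both lie on chromosome 5 of GRCm38, Cldn4 from 134945119 to 134946934 on the minus strand and Cldn3 from 134986214 to 134987472 on the plus strand, with 39.3 kb between them. The sequences are RefSeq promoter windows of GRCm38.p6, of which the 250 bases before the start site are used, and all 9 genes matched. They read 5′ to 3′ along the gene. Capitals mark matches to 5 motifs on either strand, TGANTCA of AP-1, CAGGTG (an E-box of the kind bound by Snail and ZEB factors), CCGGAAG of ETS factors, AACCNGTT of Grainyhead factors and TTTATNG of CDX factors. No 2 matches overlap. The windows are Cldn4 at chr5:134946935-134947184 (minus strand), F11r at chr1:171437311-171437534 (plus strand, ending where the GENCODE M21 model begins, 224 bases), Cldn2 at chrX:139800558-139800807 (plus strand), Cldn3 at chr5:134985964-134986213 (plus strand) and Cldn7 at chr11:69964529-69964778 (plus strand).
Cldn4: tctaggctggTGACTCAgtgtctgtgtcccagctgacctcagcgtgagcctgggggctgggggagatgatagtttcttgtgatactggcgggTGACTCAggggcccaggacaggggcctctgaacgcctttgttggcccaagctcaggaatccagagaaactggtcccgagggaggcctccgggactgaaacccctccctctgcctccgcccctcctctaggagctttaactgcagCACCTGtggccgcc
F11r: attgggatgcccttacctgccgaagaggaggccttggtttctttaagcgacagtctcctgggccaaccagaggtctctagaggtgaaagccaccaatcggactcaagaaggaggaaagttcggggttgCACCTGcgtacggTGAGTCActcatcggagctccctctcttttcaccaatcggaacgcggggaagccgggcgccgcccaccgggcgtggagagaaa
Cldn2: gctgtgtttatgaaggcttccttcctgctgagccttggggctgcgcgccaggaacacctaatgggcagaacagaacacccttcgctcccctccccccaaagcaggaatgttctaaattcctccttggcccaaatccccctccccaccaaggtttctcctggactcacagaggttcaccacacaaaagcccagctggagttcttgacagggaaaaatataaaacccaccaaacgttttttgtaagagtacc
Cldn3: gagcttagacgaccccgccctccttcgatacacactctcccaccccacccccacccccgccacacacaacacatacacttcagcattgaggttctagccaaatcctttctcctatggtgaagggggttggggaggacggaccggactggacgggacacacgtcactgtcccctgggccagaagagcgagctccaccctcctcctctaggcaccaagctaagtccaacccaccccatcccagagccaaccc
Cldn7: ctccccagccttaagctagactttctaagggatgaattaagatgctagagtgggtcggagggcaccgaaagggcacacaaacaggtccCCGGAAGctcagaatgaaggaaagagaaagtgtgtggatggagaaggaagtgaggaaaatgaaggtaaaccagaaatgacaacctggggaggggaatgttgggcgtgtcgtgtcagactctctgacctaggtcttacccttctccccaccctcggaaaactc

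The window of Cldn4 held 2 matches of the AP-1 motif, both TGACTCA, at -240 to -234 and at -158 to -152 from the start site, and 1 E-box at -14 to -9. That of F11r held 1 AP-1 motif, TGAGTCA, at -109 to -103, and 1 E-box at -122 to -117. These positions count from the RefSeq start site at the end of the full window (chr1:171437311-171437560), which lies inside the GENCODE model and beyond the last base printed. Of all 32851 windows of the same length, 6.75% held the AP-1 motif, 0.338% held 2 or more and 17.2% held the E-box. Among the 3 genes that fell, the windows of Cldn2 and Cldn3 held none of the 5 motifs. That of Cldn7 held 1 ETS motif, at -162 to -156, which 6.91% of windows held. A second RefSeq window of Cldn7 held 2 E-boxes and 1 ETS motif. The Grainyhead motif (1.79% of windows) and the CDX motif (9.81%) were found in no window of the 9 genes. The windows of Cldn1 and Tjp1 and the first of Ocln held none of the 5 motifs, that of Cldn6 held 1 E-box, and the second of Ocln held 2. A match is only a match of letters, and no binding was measured.

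Cldn4 encodes a claudin that tightens the junction and is known as 1 of the claudin receptors of the Clostridium perfringens enterotoxin. With DMSO it stood at 244 normalized counts in line #1, 12.4 in line #3, 44.7 in line #5 and 15.3 in line #10, about 316, 12, 36 and 16 reads. With trametinib it stood at 1164, 671, 1461 and 759 normalized counts in the same order of lines. Every trametinib library was above every DMSO library. The lines lay further apart before treatment, where the highest was 19.6 times the lowest, than after it, where it was 2.18 times. The fitted change was 4.61 on the log2 scale (SE 0.55, 95% interval 3.29 to 5.92, limma adjusted p = 0.00096). Line #1, with the highest DMSO level, had the smallest change, 2.25, and lines #3, #5 and #10 had 5.64, 5.00 and 5.54. Without line #1 the estimate was 5.39 (limma adjusted p = 0.0010). Of the 8 genes tested, Cldn4 had the largest change.

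Cldn3, a sealing claudin that also binds this toxin, fell where Cldn4 rose. Its normalized counts were 93.8, 1107, 128 and 504 with DMSO in lines #1, #3, #5 and #10, and 46.8, 94.1, 64.3 and 208 with trametinib. Treated and untreated libraries overlap, because line #10 with trametinib lay above lines #1 and #5 with DMSO. Within each line, however, the trametinib library was the lower one. The fitted change was -1.70 on the log2 scale (SE 0.44, limma adjusted p = 0.016), and the adjusted p was 0.14 without the block. Line #3, the highest with DMSO, changed by -3.54, and the other lines by -1.27 to -0.98. Without line #3 the log2 fold change was -1.08 (limma adjusted p = 0.0038). An exon of Wbscr25 on the other strand overlaps Cldn3, at most from 134987433 to 134987472, where Cldn3 ends. Wbscr25 was at 6.28 to 26.0 normalized counts. The library kit keeps strand, but whether the quantification used it is not given in the sources used here. Reads of the pair that cover this stretch could thus have been exchanged. Per kb of exon, Cldn4 was at 0.0078, 0.24 and 0.021 of the Cldn3 level with DMSO in lines #3, #5 and #10 and at 1.81 times it in line #1. With trametinib it was at 17.2 times the Cldn3 level in line #1, 4.94 times in line #3, 15.8 times in line #5 and 2.53 times in line #10. Thus Cldn4 was the higher of the pair in 1 of 4 lines before treatment and in 4 of 4 after it.

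Cldn2, which forms pores for sodium and other cations and is typical of leaky epithelia, lies on chromosome X from 139800828 to 139811386. It was among the abundant members with DMSO, at 5743 normalized counts in line #1, 1319 in line #3, 4797 in line #5 and 3822 in line #10. With trametinib it was at 623, 424, 1864 and 882. Each line fell, but line #5 with trametinib stayed above line #3 with DMSO, so the treatments overlap. The fitted change was -2.08 on the log2 scale (SE 0.28, 95% interval -2.75 to -1.41, limma adjusted p = 0.0014). It was largest in line #1, at -3.20, and smallest in line #5, at -1.36. Without the block the adjusted p was 0.021.

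Cldn7, a claudin known also from the basolateral membrane outside the junction, lies on chromosome 11 from 69964779 to 69967885. Its normalized counts were 72.1, 963, 132 and 114 with DMSO in lines #1, #3, #5 and #10, and 11.3, 348, 28.9 and 35.0 with trametinib. Line #3 stood apart in both treatments and, even after trametinib, held more Cldn7 than any other line did before it. The other 3 lines fell to about 12 to 36 reads. The fitted change was -1.96 on the log2 scale (SE 0.24, 95% interval -2.54 to -1.38, limma adjusted p = 0.0011), with line values from -2.57 to -1.46. The spread between lines exceeded the change, and without the block the adjusted p was 0.21.

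**Figure D1:**
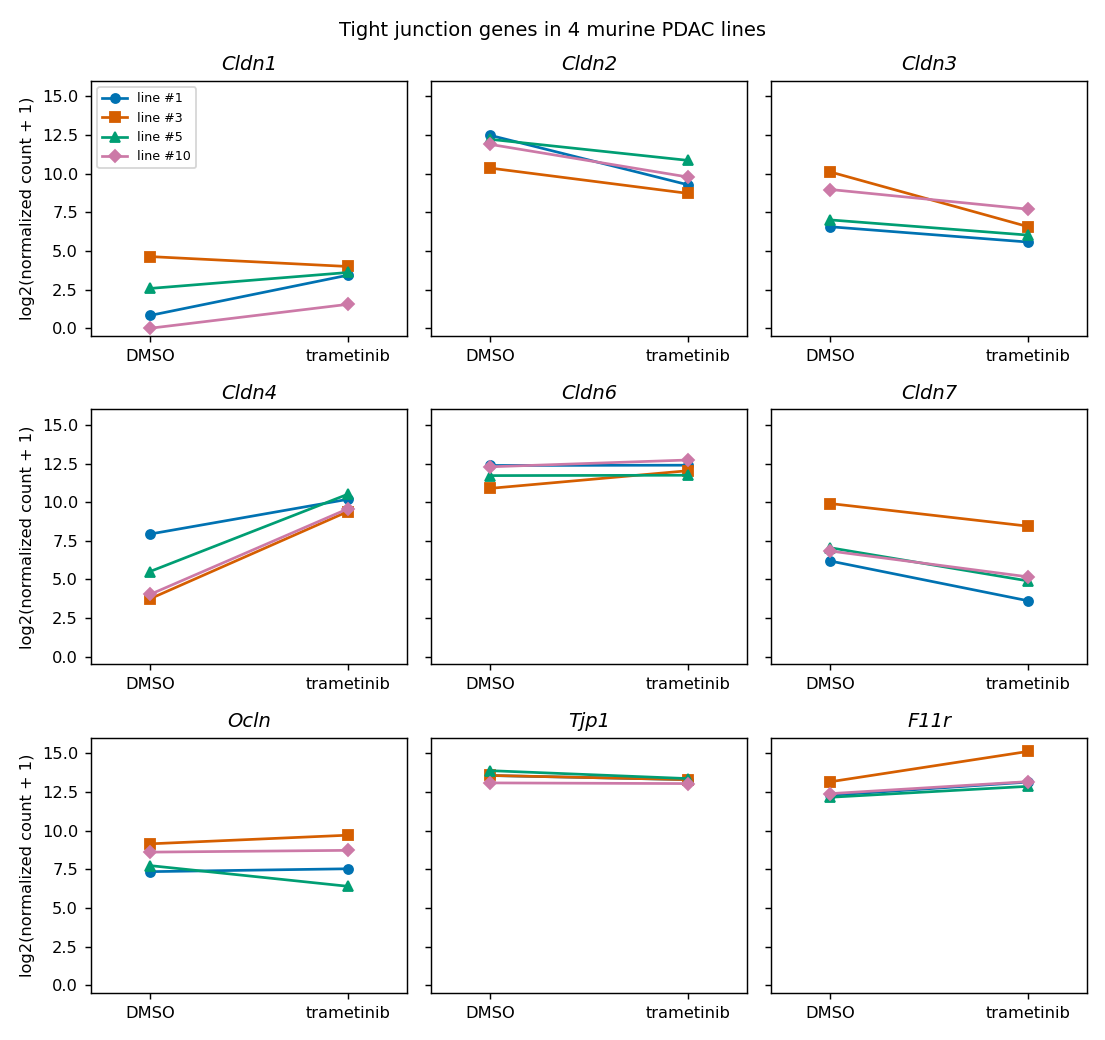
Normalized counts of the 9 genes on a log2(value + 1) axis with DMSO and with trametinib, 1 panel per gene and 1 line per cell line (#1, #3, #5 and #10, 1 library per point). Cldn4 climbs in all 4 lines to between 671 and 1461, Cldn2, Cldn3 and Cldn7 fall in all 4, and line #3 lies above the others for Cldn7 in both treatments and for F11r.

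Cldn6, an embryonic claudin that is silent in most adult tissue, lies on chromosome 17 from 23679249 to 23682446. It was high in every library, at 5319, 1905, 3377 and 5015 normalized counts in the DMSO libraries of lines #1, #3, #5 and #10 and at 5387, 4203, 3434 and 6798 with trametinib. Lines #1 and #5 had log2 fold changes of 0.02 each, line #10 of 0.44 and line #3, the lowest with DMSO, of 1.14. The log2 fold change of 0.41 did not pass (95% interval -0.05 to 0.86, limma adjusted p = 0.12), although all 4 lines were above 0.

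Cldn1, a barrier claudin of skin and many epithelia, lies on chromosome 16 from 26356642 to 26371841 and was close to the limit of detection. The DMSO libraries of lines #1, #3 and #5 held 0.776, 23.9 and 4.96 normalized counts, about 1, 23 and 4 reads, and that of line #10 was listed at 0. With trametinib it was at 9.79, 15.0, 11.2 and 1.92, about 10, 16, 14 and 2 reads. It was higher with trametinib in 3 lines and lower in line #3. Its mean was under the filter of 10 normalized counts, so it was left out of the main test. With no filter its log2 fold change was 1.14 (limma adjusted p = 0.24), and without line #10, where its mean passed the filter, it was 1.00 (limma adjusted p = 0.30).

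F11r, on chromosome 1 from 171437535 to 171464603, encodes JAM-A, which recruits polarity proteins to young junctions. It stood at 5015, 9199, 4587 and 5393 normalized counts in the DMSO libraries of lines #1, #3, #5 and #10 and at 9064, 35860, 7483 and 9249 with trametinib. All lines rose, and line #3 stood far above the others after treatment. Its DMSO library was also above the trametinib libraries of lines #1 and #5, so the treatments overlap. The fitted change was 1.08 on the log2 scale (SE 0.21, 95% interval 0.57 to 1.58, limma adjusted p = 0.0057). Line #3 changed by 1.96 and the others by 0.71 to 0.85, and without line #3 the log2 fold change was 0.78 (limma adjusted p = 0.00034). Without the block the adjusted p was 0.12.

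Ocln, on chromosome 13 from 100496507 to 100552718, was at 162, 566, 213 and 390.1 normalized counts in the DMSO libraries of lines #1, #3, #5 and #10, and at 184, 835, 83.5 and 423 with trametinib. Line #5 fell to below its DMSO value by 1.34 on the log2 scale, while lines #1, #3 and #10 were higher by 0.19, 0.56 and 0.12. The lines thus did not share a direction. The log2 fold change was -0.12 (95% interval -0.85 to 0.61, limma adjusted p = 0.76), 0.29 without line #5 and 0.0074 with libraries rescaled to equal totals.

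Tjp1, on chromosome 7 from 65296165 to 65527781, encodes ZO-1. It was at 12152, 12191, 15113 and 8729 normalized counts in the DMSO libraries of lines #1, #3, #5 and #10 and at 10119, 10111, 10595 and 8468 with trametinib. Each line was lower, line #10 by 0.04 on the log2 scale and line #5 by 0.51. The log2 fold change of -0.27 did not pass (95% interval -0.51 to -0.03, which is not adjusted for the number of genes, and adjusted p = 0.056 in limma). With libraries centred on the median it was -0.33 (limma adjusted p = 0.039), and over all alternatives the adjusted p lay between 0.039 and 0.61.

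**Figure D2:**
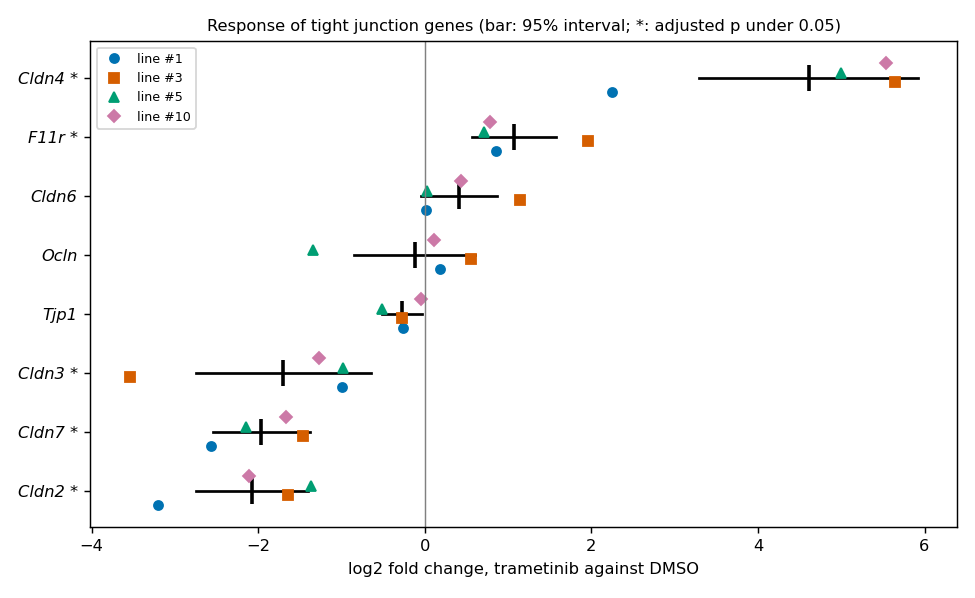
Log2 fold change of the 8 genes tested, trametinib against DMSO. The vertical tick is the limma estimate, the bar its unadjusted 95% interval, each symbol 1 cell line, and a star marks an adjusted p under 0.05. Cldn4 lies at 4.61 and F11r at 1.08, Cldn3, Cldn7 and Cldn2 lie between -2.08 and -1.70, and line #3 is the farthest point for Cldn3 and F11r.

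Levels can be compared between genes only per length, here as normalized counts per kb of merged exons in GENCODE M21. Whether the deposited values already carried a length correction is not given in the sources used here, and the levels assume that they did not. With DMSO the order of mean levels per kb was F11r (2271 ± 798, SD, n = 4 lines), Cldn6 (2268 ± 919), Tjp1 (1542 ± 334), Cldn2 (1179 ± 572), Cldn3 (364 ± 374), Cldn7 (164 ± 220.4), Ocln (78.8 ± 43.6), Cldn4 (43.6 ± 61.2) and Cldn1 (1.53 ± 2.32). Each neighbouring pair in that order overlapped over the lines except Cldn4 and Cldn1. F11r was above Cldn6 in only 1 of 4 lines, line #3, so its first place rests on that line. Without line #3 the DMSO mean per kb was 54.3 for Cldn7, below Ocln at 60.4 and Cldn4 at 55.9, and 192 for Cldn3 and 0.395 for Cldn1. Without line #1 it was 13.3 for Cldn4. With trametinib Cldn4 moved from the eighth place to the fourth, at 558 ± 202 per kb (SD, n = 4 lines), behind F11r (5788 ± 5127), Cldn6 (2879 ± 853) and Tjp1 (1258 ± 119). Cldn2 came next at 285 ± 192, ahead of Ocln (90.3 ± 79.1), Cldn3 (82.0 ± 57.4), Cldn7 (54.4 ± 83.1) and Cldn1 (1.96 ± 1.13). In that order, the ranges did not overlap between Cldn6 and Tjp1, between Tjp1 and Cldn4 and between Cldn7 and Cldn1. Without line #3 the trametinib means per kb were 3229 for F11r, 54.5 for Ocln, then below Cldn3 at 84.4, and 12.9 for Cldn7, and without line #10 that of Cldn3 was 54.3, below Cldn7 at 66.5.

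Over the 22 claudin genes of the table, Cldn6 and Cldn2 together made up 47.0% of the summed level per kb in line #1 with DMSO, 41.5% in line #3, 80.5% in line #5 and 78.6% in line #10. Cldn2 held 16.9%, 10.9%, 34.1% and 22.2% of the sum in lines #1, #3, #5 and #10 before trametinib and 2.41%, 3.05%, 13.5% and 4.77% after it. Cldn4 held 1.31%, 0.189%, 0.582% and 0.163% before and 8.23%, 8.84%, 19.4% and 7.52% after, in the same order. These shares add up to 100%, so a rise of 1 gene lowers the others. Cldn5 was not among the genes of the deposited table and has no share here. Cldn6 stood at 1.36 to 2.79 times the level of Cldn2 per kb with DMSO and at 3.56 to 19.2 times with trametinib. Line #3 differed in make-up before treatment, with 24.3% Cldn3 and 13.6% Cldn7 against at most 7.73% and 1.60% in the other lines. After trametinib, Cldn3 was at 1.79% in line #3 and Cldn7 at 4.28%. These differences between lines were not tested.

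**Figure D3:**
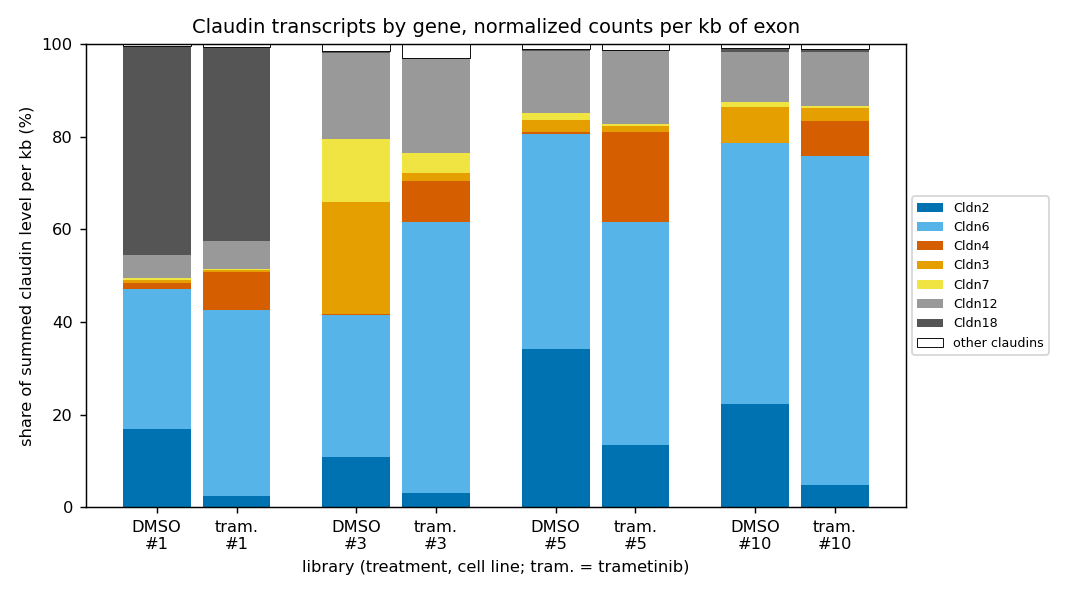
Share of each claudin gene in the summed level per kb of 22 claudin genes (vertical axis, %), with 1 stacked bar per library, grouped by cell line. Cldn2 shrinks and Cldn4 widens in each line with trametinib, Cldn3 and Cldn7 fill much of line #3 with DMSO, and Cldn18 takes 45.0% and 41.8% in the bars of line #1.

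The other 16 claudins of the table were mostly silent. Only 6 passed the filter on low values, and 0 of these had an adjusted p under 0.05 in limma, with 1 at an unadjusted p under 0.05, where 53.0% of all genes tested passed. Without the block 0 passed as well, where 28.7% of all genes tested passed. The gene at an unadjusted p under 0.05 was Cldn19, at 2 reads or fewer in every DMSO library and at 95.7 normalized counts in line #3 with trametinib against 0.895 to 10.96 in the other lines, so that its mean rests on line #3. Like Cldn12 and Cldn18, it is singled out after its values were seen. Cldn12 stood at 2210.4 to 2844 normalized counts with DMSO and 2018 to 3597 with trametinib. Cldn18, the claudin of stomach and lung epithelium, stood at 20528 in the DMSO library of line #1 and 14501 in its trametinib library, and at 15.0 to 202 in every library of the other lines. Line #1 thus carried a further abundant claudin that the other lines did not. The log2 fold change of Cldn18 was -0.83 (limma adjusted p = 0.090), below 0 in 4 of 4 lines.

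A list of 35 other tight junction genes covers scaffolds, polarity proteins and junction adhesion molecules. Of the 33 that were tested, 12 rose and 5 fell at a limma adjusted p under 0.05, 51.5% against the background of 53.0%, and 16 did not pass. Without the block 6 were higher and 1 lower, where 28.7% of all genes tested were called. Their median log2 fold change was 0.23, beside 0.07 for all genes tested. Amotl2, an angiomotin that binds YAP and junction scaffolds, rose by 1.81 on the log2 scale (limma adjusted p = 0.00080), from 2662 to 7353 normalized counts with DMSO to 16601 to 20204 with trametinib. Esam, an endothelial relative of JAM-A, rose by 1.22 (limma adjusted p = 0.0040) but reached only 56.1 to 110.0 normalized counts. Marveld3, of the same tetraspanning family as occludin, rose by 1.20 (limma adjusted p = 0.0022, 0.10 without the block), while its relative Marveld2, or tricellulin, picked once its values were known, was at 0.04 (limma adjusted p = 0.89).

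The falls included relatives of the members. Ybx3, a factor that ZO-1 can hold at the junction, fell by 1.45 on the log2 scale (limma adjusted p = 0.00094). Ildr1, a protein of the corners where 3 cells meet, fell by 1.66 (limma adjusted p = 0.037), but it was at 3 reads or fewer in both libraries of lines #1 and #10, and its adjusted p rose to 0.46 without the block. Leaving out line #3, #10 or #5 also ended the call (limma adjusted p = 0.070, 0.085 and 0.13), with a log2 fold change of -1.09 without line #5. A pseudocount of 5 (log2 fold change -1.11, limma adjusted p = 0.065) and no filter (limma adjusted p = 0.073) ended it too, and a pseudocount of 0.1 gave -2.50. Jam2, a second junctional adhesion molecule, fell by 0.91 (limma adjusted p = 0.0041, 0.098 without the block), where F11r of the same family rose.

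**Figure D4:**
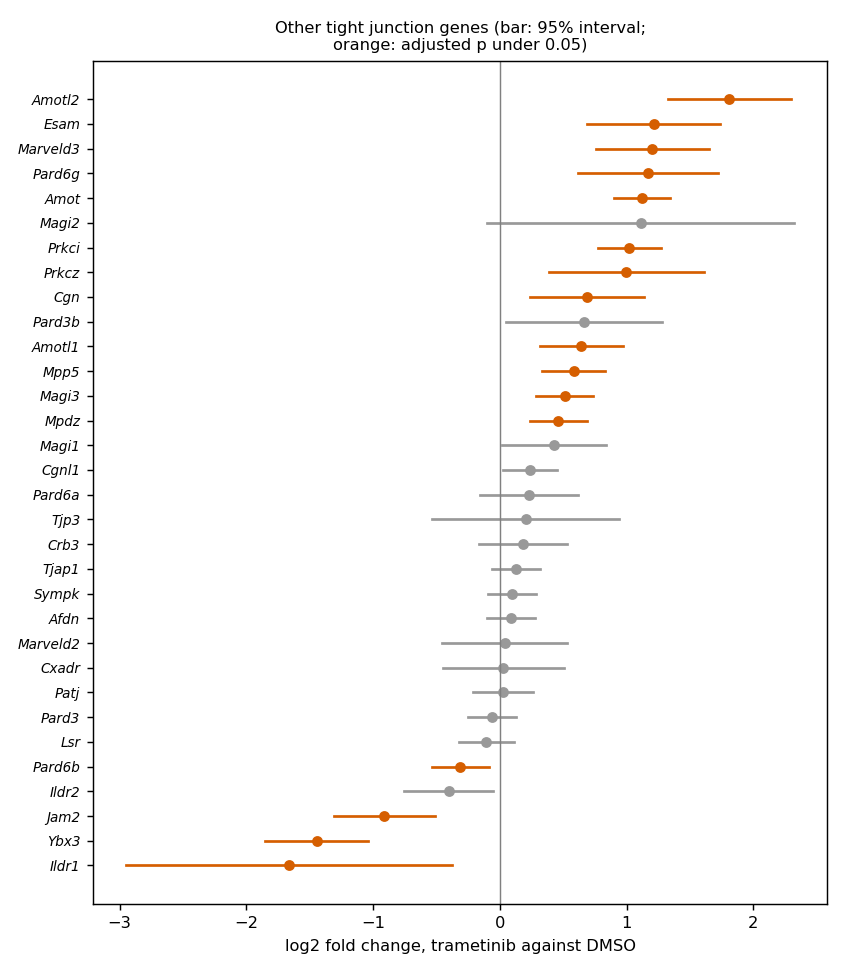
Log2 fold change of 32 of the 33 other tight junction genes that were tested, trametinib against DMSO, with the limma estimate as a point and its unadjusted 95% interval as a bar. The 12 higher and 4 lower genes drawn with an adjusted p under 0.05 are orange, from Amotl2 at 1.81 to Ildr1 at -1.66.

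Regulators of epithelial genes were examined beside them. Of 7 repressors of the Snail, ZEB and Twist families, 2 rose and 2 fell at a limma adjusted p under 0.05, 57.1% against 53.0% of all genes tested, which is near that background. Without the block 1 rose and 0 fell, where 28.7% of all genes tested were called. With no filter, and without line #1, #3 or #5, 2 rose and 1 fell. With equal totals or eBayes without trend 3 rose and 2 fell. Zeb1 rose by 0.58 (limma adjusted p = 0.0033) and Zeb2 by 0.82 (limma adjusted p = 0.0058, 0.18 without the block) on the log2 scale. Snai3 fell by 0.99 (limma adjusted p = 0.018, 0.086 without the block and 0.055 without line #5). Twist2 fell by 1.59 (limma adjusted p = 0.031, 0.17 without the block), by 1.02 without line #3 (limma adjusted p = 0.056), and did not pass without line #1 either (0.088). Of 13 regulators of epithelial and endodermal cells, transcription factors and the splicing regulators Esrp1 and Esrp2, 9 were tested, of which 1 rose and 6 fell, where 27.3% of all genes tested rose and 25.6% fell. Without the block 0 rose and 2 fell, where 28.7% of all genes tested were called. With equal totals 1 rose and 5 fell, and without line #5 1 rose and 4 fell. With quantile normalization, no filter or eBayes without trend, and without line #10, 1 rose and 5 fell. Grhl3, a Grainyhead factor of barrier epithelia, rose by 1.48 (limma adjusted p = 0.0012, 0.098 without the block). Grhl1, of the same family, fell by 0.93 in 4 of 4 lines (limma adjusted p = 0.028), but did not pass without the block (0.059), without line #5 (0.080) or without line #10 (0.052). Elf3, an epithelial ETS factor, fell by 0.90 (limma adjusted p = 0.037) and did not pass with equal totals (0.058), without the block (0.096) or without line #5 (0.11). Esrp2 fell by 0.43 (limma adjusted p = 0.0073, 0.072 without the block). Cdx2, an intestinal homeobox factor, fell by 1.81 (limma adjusted p = 0.00033), Klf5 by 1.05 (limma adjusted p = 0.0025) and Hnf4a by 0.73 (limma adjusted p = 0.0070, 0.054 without the block). Grhl2, at 15.9 normalized counts or less, was below the filter. Cdh1, the E-cadherin of the adherens junction next to the tight junction, was at 19630 to 28487 normalized counts with DMSO and 21158 to 27194 with trametinib, with a log2 fold change of -0.02 (limma adjusted p = 0.88). It was the 1 gene not called among 7 tested markers of epithelial and mesenchymal cells, of which 2 rose and 4 fell, 85.7% against 53.0% of all genes tested. Without the block 2 rose and 0 fell, against 28.7% of all genes called. With equal totals, quantile normalization or eBayes without trend, and without line #5, 2 rose and 2 fell. Without line #3 2 rose and 3 fell. Cdh2, or N-cadherin, rose by 1.13 (limma adjusted p = 0.00080) and Fn1, or fibronectin, by 3.16 (limma adjusted p = 0.00036), each in 4 of 4 lines. Vim, or vimentin, fell by 0.78 (limma adjusted p = 0.0023, 0.052 without the block). The keratins Krt8, Krt18 and Krt19 fell by 0.74, 0.82 and 0.66 (limma adjusted p = 0.028, 0.0054 and 0.029). With equal totals Krt8 and Krt19 did not pass (limma adjusted p = 0.054 and 0.056), and without the block none of these keratins passed.

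The gene whose values over the 8 libraries were most like those of a tested member was found by Pearson's r of log2(value + 1) among the genes that passed the filter. It was Zfp655 for Cldn4 (r = 0.990), Frat1 for Cldn3 (r = 0.9952), Cmtr2 for Cldn2 (r = 0.979) and Mettl2 for Cldn7 (r = 0.977). For Cldn6 it was Fbxo6 (r = 0.970), for Ocln Hadhb (r = 0.981) and for Tjp1 Smg9 (r = 0.962). For Cldn4, 66 genes had an r above 0.95. The 8 libraries share 4 lines and 2 treatments, so these values only describe the profiles.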

How the data were processed

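Stranded mRNA libraries were sequenced from 4 PDAC lines with DMSO and with trametinib. The submitters' processing notes name CASAVA 2.17, Salmon 0.12, DESeq2 1.18 and the build mm10, without their roles. The authors deposited normalized counts, a signal per gene that they scaled between libraries, and how they scaled it is not given in the sources used here. Library totals were 30680091 to 36385719. One read was worth the commonest low value, and between 57.2% and 67.8% of the values under 20 such steps were whole multiples within 0.05, so whole reads were not recovered and no count test was run. Counting error and the floor of 3 reads cover sampling of reads only.

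Values were transformed as log2(value + 1) and genes with a mean of at least 10 were tested with limma 3.58.1 in R 4.3.3 (lmFit, eBayes with trend, cell line as a block, two-sided, Benjamini-Hochberg adjustment, threshold 0.05). A fold change is on this scale, which understates changes of low genes. Libraries with the same number come from the same line, and their deviations from the treatment means correlated at 0.63 to 0.72. The p-values measure the spread of the log2 fold change between these 4 lines. With eBayes, the variance of each gene was drawn toward a trend over all genes tested, so the p-values rest partly on other genes. The fit was tested on simulated data, and no outcome of that test is given here. Tables used Python 3.11.15 with pandas 2.3.3 and numpy 2.4.6, and plots matplotlib 3.10.9. Lengths and positions are from GENCODE M21 (GRCm38) by symbol. Members, gene lists and motifs were chosen with earlier results of these data known. The text names all members and at most 6 changed genes of the list of other tight junction genes. It also names part of the listed regulators and markers, and genes most like members. Of the regulators, mostly those called are named. Some items, among them 1 allele of the mouse model, are not reported here. Any further gene is marked where it is named. As alternatives, pseudocounts of 0.1 and 5, equal totals, quantile normalization, centring on the median, no filter, a mean of at least 50, no block, other variance models and the omission of each line were tried.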

Additional observations from a re-analysis of the deposited data

Results flagged for a closer look

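Groups of 4 lines were searched for a value that stands apart, for the 9 genes and 19 others, and 15 of 84 groups held one. Chance flags about 1 in 20 independent groups, but the 3 groups of a gene share values, levels were searched unlogged, and some genes, such as Cldn18 and Cldn19, were picked with their values known, so no chance count applies here. No explanation was tested for them. In line #3, Cldn7 stood at 963 normalized counts with DMSO, against 72.1 to 132 in the other lines, and at 348 with trametinib, against 11.3 to 35.0. The log2 fold change of Cldn3 there was -3.54, against -1.27 to -0.98. F11r reached 35860 normalized counts with trametinib in line #3, against 7483 to 9249, and its log2 fold change there was 1.96, against 0.71 to 0.85. Also in line #3, Marveld2 was at 669 with DMSO, against 206 to 277, Marveld3 at 209 with DMSO, against 59.3 to 76.2, and Ildr1 at 64.0 with trametinib, against 0 to 4.18. Cldn19 was at 95.7 with trametinib in line #3, against 0.895 to 10.96.

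In line #1, Cldn4 stood at 244 normalized counts with DMSO, against 12.4 to 44.7 in the other lines. Cldn18 stood there at 20528 with DMSO, against 51.4 to 202, and at 14501 with trametinib, against 15.0 to 161. In line #5, Cldn18 changed by -2.32 on the log2 scale, against -0.50 to -0.18, and Ybx3 stood at 21407 with DMSO, against 10422 to 11311. In line #10, Snai3 stood at 155 with trametinib, against 71.4 to 74.2.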

How the results depend on the processing

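Under 14 alternatives, Cldn4 and Cldn2 kept their direction and an adjusted p under 0.05 in limma, with log2 fold changes of 4.26 to 5.39 and -2.32 to -1.70. When the block for cell line was dropped, the pairing was lost and the log2 fold changes of Cldn3 (-1.70), Cldn7 (-1.96) and F11r (1.08) no longer passed. Member calls without the block were 1 higher and 1 lower, calls of other tight junction genes 6 and 1, and calls of all genes 2205 and 2347, against 4341 and 4075. The cause was not tested. Lines differ widely in these genes, and the block changed no other call among the members. Ocln turned to 0.0074 with equal totals and to 0.29 without line #5, and Tjp1 passed at -0.33 with centring on the median. Equal totals moved the median log2 fold change of all genes from 0.07 to 0.20 and the calls to 5315 higher and 3284 lower. Quantile normalization moved that median to -0.03. Other tight junction genes numbered 16 higher and 4 lower with equal totals and with quantile normalization. With centring on the median they numbered 12 higher and 6 lower.

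Over the fits that omitted 1 line each, the log2 fold changes lay between 4.26 and 5.39 for Cldn4, -2.32 and -1.70 for Cldn2, -1.93 and -1.08 for Cldn3, -2.13 and -1.76 for Cldn7, 0.78 and 1.20 for F11r, 0.16 and 0.53 for Cldn6, -0.35 and 0.29 for Ocln and -0.35 and -0.19 for Tjp1. The calls of members were 2 higher and 3 lower each time. Other tight junction genes numbered 10 to 14 higher and 3 to 4 lower, and 3 lower without a filter. Other claudins numbered 0 to 1 higher, the 1 being Cldn34c1 without line #5, singled out after its values were seen. All genes numbered 3383 to 4195 higher and 3302 to 4007 lower. Depth limits Cldn1, at 0 to 23 reads per library.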
